A study of Mus musculus with 111 samples.

Results

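The genes described here encode the subunits of the proteasome, its activators and its assembly factors. They were taken by symbol: every gene measured by a probe set with 1 gene symbol whose symbol begins with Psma, Psmb, Psmc, Psmd, Psme, Psmf or Psmg and a digit, without Psmb8, Psmb9 and Psmb10, the subunits that are exchanged into the immunoproteasome. This gave 46 genes of 18194 measured by such probe sets, and for the 26 genes with several probe sets, the brightest on average was used. The 46 comprised 8 genes of the 20S alpha ring, 8 of the 20S beta ring, 9 of the 19S base, 8 of the 19S lid, 4 activators or inhibitors (Psme1, Psme3, Psme4 and Psmf1) and 7 assembly chaperones (Psmd5, Psmd9, Psmd10 and Psmg1 to Psmg4). The other 2, Psmc3ip and Psme3ip1, carry the prefix but are not proteasome subunits. Psme2, the partner of Psme1, was left out because its only probe set is annotated to Psme2 and Psme2b.

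RNA from sorted cells of the mouse striatum was measured on Affymetrix arrays, and all levels below are the deposited log2 values, so that a difference of 1 is a doubling. Astrocytes (GLT1+/CD11b-), microglia (GLT1-/CD11b+) and cells negative for both markers were sorted from R6/2 mice, which carry a huntingtin exon 1 transgene, and from zQ175 mice, a knock-in of an expanded repeat into the mouse huntingtin gene, each beside littermate WT controls. In every fraction there were 5 WT and 5 R6/2 samples at 6 weeks, 5 WT and 6 R6/2 samples at 12 weeks, and 4 WT and 4 zQ175 samples at 6 months and again at 12 months, 24 groups and 37 samples per fraction in all. Each sample pooled striata from littermates of equal genotype, with the subventricular zone removed, and no drug or other treatment is named in the labels. As the arrays measure RNA of sorted cells in bulk, fewer cells of a type and less RNA per cell cannot be told apart.

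The fractions were checked against markers. The mean level of 10 astrocyte markers was 12.96 in sorted astrocytes, 8.93 in microglia and 10.04 in negative cells, and that of 11 microglia markers was 5.69, 12.48 and 6.19. The mean level of 9 oligodendrocyte markers was as high in the astrocyte fraction (12.45) as in negative cells (12.23), so the astrocyte fraction also held oligodendrocyte RNA. Negative cells had the highest means of young neuron (12.05) and endothelial and mural markers (11.68). In 8 libraries the correlation with the rest of the group was below 0.97: R6/2 negative samples 11 and 21 at 12 weeks, WT 24 and zQ175 26 of negative cells at 6 months, WT 34 and zQ175 31 and 32 of negative cells at 12 months, and zQ175 microglia sample 31 at 12 months. Both libraries of sample 31 also went against their labels, since the negative one had a mean of 10.17 for microglia markers and the microglia one had the highest mean of young neuron markers of all microglia libraries. In WT samples 12 and 20 at 12 weeks, Y-linked genes lay at 2.80 to 3.85 in all 3 fractions, against 7.21 to 9.79 in all other libraries.

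The proteasome degrades proteins that are tagged with ubiquitin chains. Its 20S core is a barrel of alpha rings, which form the gate, and beta rings, in which Psmb5, Psmb6 and Psmb7 carry the chymotrypsin-like, caspase-like and trypsin-like sites. The 19S particle that caps the core has a base, with the ATPases Psmc1 to Psmc6 that unfold substrates, and a lid, with the deubiquitinase Psmd14 that removes the ubiquitin chain. Interferons are known to replace the catalytic beta subunits by Psmb8, Psmb9 and Psmb10 and to induce Psme1 and Psme2, which form the PA28 activator, while the transcription factor NRF1 (gene Nfe2l1) is known to raise the constitutive subunits when the proteasome is impaired. Aggregates of mutant huntingtin are rich in ubiquitin, which is why the proteasome has long been studied in Huntington's disease.

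The sequences before the start sites of 4 members are shown because these members stand for the catalytic core (Psmb5) and for those that changed in R6/2 astrocytes at 12 weeks in each direction (Psmc6, Psme1 and Psmg1). Each is the 250 bases before the start used in the RefSeq promoter table (GRCm38.p6), 5′ to 3′ in the gene's direction; for Psmc6 that start lies 1 base inside the gene as RefSeq annotates it. Capitals mark matches on either strand to TGACNNNGC, the antioxidant response element (in Psmb5 and Psmc6), or to TTCNNNGAA, the gamma-activated site (in Psmg1). The windows are chr14:54617996-54618245 on the minus strand for Psmb5, chr14:45329574-45329823 on the plus strand for Psmc6, chr14:55578244-55578493 on the plus strand for Psme1 and chr16:95990961-95991210 on the minus strand for Psmg1.
Psmb5: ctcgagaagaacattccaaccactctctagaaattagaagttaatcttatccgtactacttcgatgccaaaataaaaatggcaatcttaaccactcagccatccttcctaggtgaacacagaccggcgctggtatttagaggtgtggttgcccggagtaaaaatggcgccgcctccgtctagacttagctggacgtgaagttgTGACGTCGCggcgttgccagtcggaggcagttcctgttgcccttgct
Psmc6: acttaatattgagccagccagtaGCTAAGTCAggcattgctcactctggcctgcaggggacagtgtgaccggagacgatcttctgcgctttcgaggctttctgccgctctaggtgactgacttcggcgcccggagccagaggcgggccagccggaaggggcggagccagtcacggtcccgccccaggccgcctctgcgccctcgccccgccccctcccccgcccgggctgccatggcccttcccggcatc
Psme1: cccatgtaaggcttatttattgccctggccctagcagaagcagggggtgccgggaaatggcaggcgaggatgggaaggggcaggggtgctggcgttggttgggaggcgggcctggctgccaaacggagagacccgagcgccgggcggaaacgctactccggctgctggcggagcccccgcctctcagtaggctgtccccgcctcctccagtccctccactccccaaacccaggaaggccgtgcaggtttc
Psmg1: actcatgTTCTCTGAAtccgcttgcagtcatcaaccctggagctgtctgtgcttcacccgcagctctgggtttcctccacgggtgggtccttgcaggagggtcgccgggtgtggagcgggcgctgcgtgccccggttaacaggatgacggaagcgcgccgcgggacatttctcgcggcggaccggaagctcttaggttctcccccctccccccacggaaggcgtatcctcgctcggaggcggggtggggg

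The match in Psmb5 lay 47 to 39 bases before the start, that in Psmc6 227 to 219 bases before it on the reverse strand, and that in Psmg1 243 to 235 bases before it. Psme1 held no match to either motif, nor to the interferon-stimulated response element (GAAA, any 2 bases, GAAA) or CCAAT. A promoter entry existed for 38 of the 46 members, and 3 members had more than 1. Member shares count genes with a match in any entry, while shares of all promoters count entries, so the 2 are not in the same unit. Among these 38, TGACNNNGC was found in 5 (13.2%: Psmb5, Psmb6, Psmc6, Psmd9 and Psmd12), against 10.2% of all 32851 promoters of the same length. The interferon-stimulated response element was found in 3 (7.89%: Psmb3, Psmd4 and Psmd9), against 2.98% of all promoters, TTCNNNGAA in 1 (2.63%), against 7.02%, and CCAAT in 15 (39.5%), against 33.8%. No motif overlapped another in the 4 windows shown, and a match is a string of letters and not a known site.

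The constitutive subunits varied less between the groups than most genes measured. Over the 24 group means, the SD of a gene was 0.17 at the median of the 31 constitutive 20S and 19S subunits, against 0.52 at the median of all 12477 genes above the dim level and 0.34 at the median of the 4228 genes with a mean of at least 10. Psmd12, a scaffold of the lid, had the lowest SD (0.08), followed by the ATPase Psmc2 (0.10) and the lid subunit Psmd6 (0.10). The members that varied most were Psma8, a testis alpha subunit, with an SD of 1.22, Psmc3ip, a meiotic recombination factor, with 0.83, the activator subunit Psme1 with 0.74 and the inhibitor Psmf1 with 0.56. Among constitutive subunits the highest SD was that of Psmd7 (0.36), the lid subunit that pairs with Psmd14. In WT mice the Psmd7 level was 9.67 ± 0.15 at 6 weeks and 9.10 ± 0.19 at 12 weeks in astrocytes, and 9.65 ± 0.13 and 8.89 ± 0.13 in negative cells (SD, n = 5 each), without overlap between the ages. The Psme1 level in WT negative cells was 11.21 ± 0.18 at 6 weeks and 12.26 ± 0.15 at 12 weeks (SD, n = 5 each), again without overlap. Ages were not compared by a test, and the WT mice of the later ages belong to another line. Both genes were picked here after their values were seen. The share of all genes without overlap between 6 and 12 weeks was not counted, and of the 3 Psmd7 probe sets only the brightest was used. Psmb11, the thymus beta subunit, had a mean of 3.44, below the dim level of 5.65, and was not tested in any comparison.

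**Figure D1:**
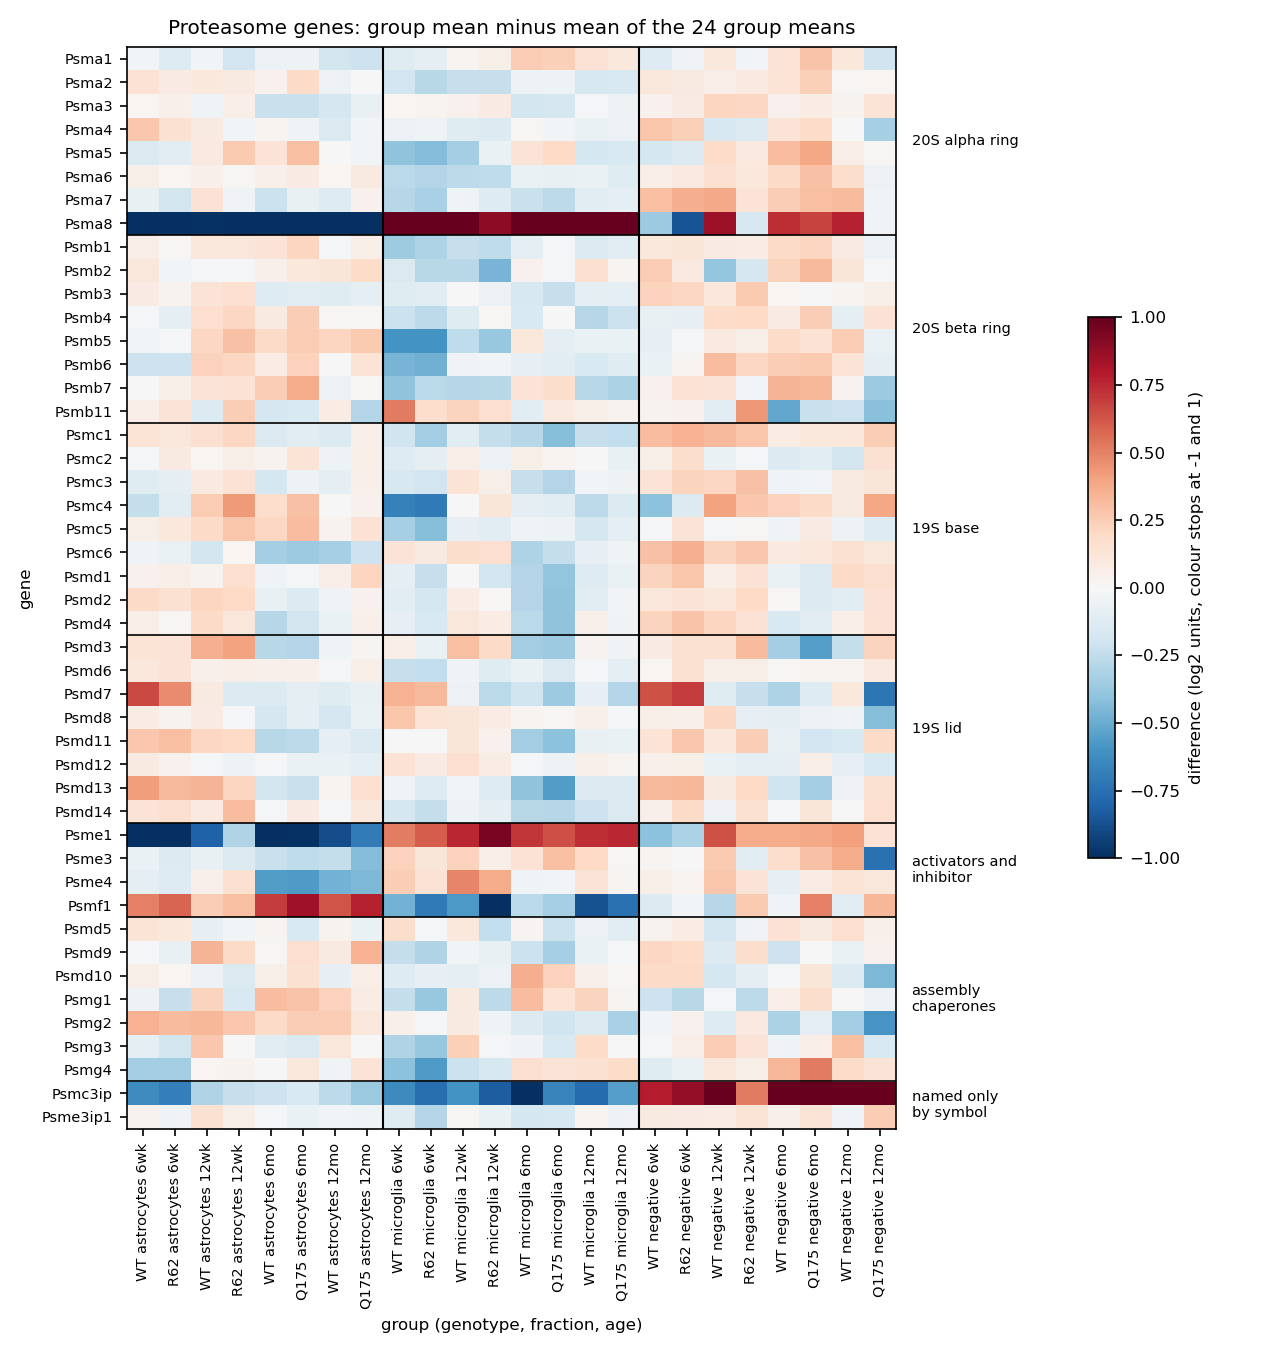
Group means of the proteasome genes (rows of the map, ordered by subcomplex) in the 24 groups (columns), each as its difference from the mean of that gene's 24 group means, in log2 units, with colours that stop at -1 and 1. Most of the 31 constitutive subunits are pale, with a median SD of 0.17 over the groups, while Psma8, Psme1, Psmf1 and Psmc3ip split by fraction.

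In WT mice the core proteasome differed little between the sorted fractions and the activators differed more. A comparison over the 18 WT samples of each fraction, with age as a covariate, asked how subunit levels differ between the cells. Psmb5 stood at 11.58 ± 0.18 in astrocytes, 11.22 ± 0.32 in microglia and 11.54 ± 0.24 in negative cells (SD, n = 18 each). Psmb6 stood at 12.34 ± 0.19, 12.12 ± 0.21 and 12.47 ± 0.19, and Psmb7 at 11.63 ± 0.18, 11.32 ± 0.27 and 11.68 ± 0.18. All 3 catalytic subunits were thus lowest in microglia, by 0.21 to 0.37 against astrocytes and by 0.33 to 0.36 against negative cells, with ranges that overlapped. These sizes are without centring of the arrays. Array medians were also lowest in microglia (6.32, against 6.45 in astrocytes and 6.53 in negative cells). The part of this array-wide difference in each gap was not tested.

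Between WT astrocytes and microglia, 32 of 45 members tested were called, meaning a limma p-value below 0.05 after Benjamini-Hochberg adjustment over all genes (71.1%, against 85.6% of all genes tested, 44.9% higher and 40.7% lower); 24 were higher in astrocytes and 8 in microglia. Of the constitutive subunits 20 were higher in astrocytes and 4 in microglia, and all 7 beta ring subunits tested were higher in astrocytes, 6 of 7 when the arrays were centred on their medians, where Psmb3 turned below 0. The largest differences in favour of astrocytes were those of Psmf1 (1.05, SE 0.11), Psmc3ip (0.37, SE 0.12), Psmb5 (0.37, SE 0.07) and the lid subunit Psmd13 (0.32). Among members above the dim level of 5.65 in both fractions, the largest difference in favour of microglia was that of Psme1 (-1.70, SE 0.07). Next came the nuclear activators PA200 (Psme4, -0.46) and PA28-gamma (Psme3, -0.34).

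Psme1 thus had the largest difference between astrocytes and microglia of the members above the dim level in both. It ranged from 10.07 to 11.34 in WT astrocytes, with a median of 10.59, from 11.95 to 12.47 in WT microglia, with a median of 12.33, and from 10.92 to 12.44 in negative cells, with a median of 11.98. The astrocyte and microglia samples did not overlap, and the negative cells reached into both. The immunoproteasome subunits ran the same way, with Psmb8 at 6.79 ± 0.83 in astrocytes, 11.11 ± 0.19 in microglia and 9.44 ± 0.71 in negative cells (SD, n = 18 each). Psmb9 stood at 6.50 ± 0.63, 10.50 ± 0.28 and 9.04 ± 0.84, and Psmb10 at 9.92 ± 0.31, 11.52 ± 0.23 and 10.50 ± 0.60. The differences of astrocytes minus microglia were -4.32 for Psmb8, -4.00 for Psmb9 and -1.61 for Psmb10, and the adjusted limma p-values were 1.2e-32, 2.6e-31 and 6.9e-24.

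The inhibitor Psmf1 ran the other way, with 8.86 ± 0.28 in astrocytes, 7.81 ± 0.45 in microglia and 8.21 ± 0.25 in negative cells (SD, n = 18 each). Psma8 stood at 5.42 ± 0.50 in astrocytes, 8.12 ± 0.25 in microglia and 7.26 ± 0.67 in negative cells. Its astrocyte mean lay below the dim level of 5.65, so no size is given for its differences from astrocytes, although it is counted among the members called. Psmc3ip stood at 9.32 ± 0.41 in negative cells, above 7.85 ± 0.28 in astrocytes and 7.47 ± 0.42 in microglia.

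Against negative cells, WT astrocytes had 5 members higher and 16 lower of 45 (46.7%, against 75.9% of all genes tested, 38.7% higher and 37.2% lower). The largest differences, Psma8 aside, were lower levels in astrocytes of Psmc3ip (-1.48), Psme1 (-1.27) and the ATPase Psmc6 (-0.41), and higher levels of Psmf1 (0.65) and of the assembly chaperones Psmg2 (0.48), Psmg1 (0.22) and Psmd9 (0.15). The directions of Psmc6 and Psmd9 turned when the probe sets of a gene were averaged, to 0.01 and -0.01. WT microglia had 4 members higher and 26 lower than negative cells (66.7%, against 83.7% of all genes tested, 40.2% higher and 43.5% lower), with Psmc3ip (-1.85), the alpha subunit Psma7 (-0.48), the ATPase Psmc1 (-0.42) and Psmf1 (-0.40) lowest and Psma8 (0.86), Psme1 (0.44), Psmg2 (0.17) and Psmd12 (0.14) highest.

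The split of higher and lower members depended on the scale. Array medians averaged 6.45 in astrocytes, 6.32 in microglia and 6.53 in negative cells, and centring the arrays on them moved the median difference of all genes from 0.05 to -0.08 for astrocytes minus microglia, from 0.03 to 0.11 for astrocytes minus negative cells and from -0.03 to 0.18 for microglia minus negative cells. With centring, astrocytes had 14 members above microglia and 13 below, and 14 above negative cells and 9 below, while microglia had 15 above negative cells and 7 below. The directions of Psme1, Psmf1, Psma8, Psmc3ip, Psmb8, Psmb9 and Psmb10 were the same with and without centring in all 3 comparisons, although Psmf1 was then not called between microglia and negative cells (-0.19, limma adjusted p = 0.0969).

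**Figure D2:**
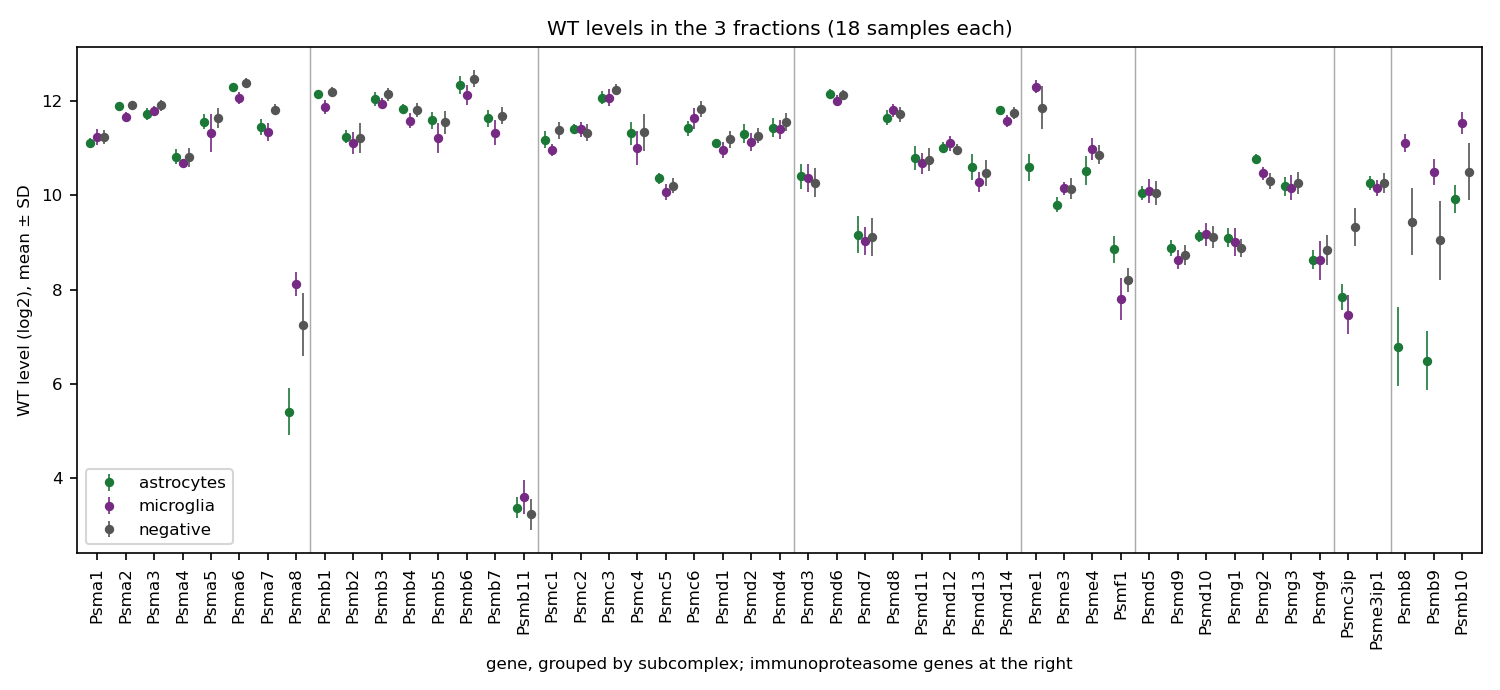
WT levels (log2, mean ± SD) of the members and of the immunoproteasome genes in astrocytes, microglia and negative cells, 18 samples each, grouped by subcomplex. Most 20S and 19S subunits lie close together in the 3 fractions, while Psme1 (10.59 in astrocytes, 12.30 in microglia) and Psmb8 (6.79 and 11.11) stand apart.

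In R6/2 astrocytes at 12 weeks, the constitutive subunits lay near 0 at the median, and the members that were called belonged to the activator, the 19S particle and the chaperones. Of 44 members tested 5 were called (11.4%, against 28.7% of all genes tested, 14.5% higher and 14.2% lower), with Psme1, Psmd14 and Psmc6 higher and the chaperones Psmg1 and Psmg3 lower. The median difference of the 31 constitutive subunits was 0.01, and the 95% interval of 42 of the 44 members lay within 1.5-fold either way, as it did for 66.8% of all genes tested. With the arrays centred on their medians 6 members were called, 1 higher and 5 lower.

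Psme1 was measured at 10.59, 10.66, 10.70, 10.77 and 11.34 in the WT astrocyte samples and, by the lowest, median and highest of 6, at 11.20, 11.28 and 11.48 in R6/2. WT sample 14 alone reached into the R6/2 range, so the groups overlapped. The difference was 0.51 (SE 0.13, 1.42-fold, limma adjusted p = 0.0054), and without WT samples 12 and 20 its adjusted p was 0.0619. At 6 weeks, R6/2 astrocytes stood at 10.47 ± 0.23 and WT at 10.38 ± 0.17 (SD, n = 5 each), a difference that was not called.

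Psmd14, the deubiquitinase of the lid, was measured at 11.74, 11.79, 11.86, 11.91 and 11.92 in WT and from 11.98 to 12.13 in R6/2 astrocytes, with a median of 12.05. All 6 R6/2 samples lay above all WT samples. The difference was 0.21 (SE 0.05, limma adjusted p = 0.0041), and with centred arrays it was 0.16 with an adjusted p of 0.0567. Psmc6, an ATPase of the base, was measured at 11.38, 11.40, 11.42, 11.50 and 11.55 in WT and from 11.57 to 11.75 in R6/2, again without overlap. Its difference was 0.20 (SE 0.06, limma adjusted p = 0.0130), but its other probe sets, which were dimmer, differed by -0.08 and -0.04, and averaged over its probe sets, or with centring, it was not called.

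Psmg1, a chaperone that builds the alpha ring together with Psmg2, was measured at 8.92, 9.01, 9.20, 9.25 and 9.39 in WT astrocytes and from 8.52 to 8.88 in R6/2, with a median of 8.83. All R6/2 samples lay below all WT samples. The difference was -0.38 (SE 0.12, limma adjusted p = 0.0244), and it was not called without WT sample 14, without WT sample 18 or without R6/2 sample 19. Psmg3, the partner of Psmg4, was measured at 10.32, 10.36, 10.37, 10.40 and 10.60 in WT and from 9.92 to 10.38 in R6/2, with overlap. Its difference was -0.27 (SE 0.10, limma adjusted p = 0.0421), its other probe set differed by 0.11, and the call was lost in 11 of 15 alternatives. Without WT sample 18 or without R6/2 sample 19, 3 of the 44 members were called. Groups did not overlap for 3 of the 44 members (Psmd14, Psmc6 and Psmg1), against 14% of all genes tested.

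The catalytic subunits of the standard core were not called. Psmb5 was measured at 11.49, 11.53, 11.53, 11.67 and 12.04 in WT astrocytes and from 11.56 to 12.01 in R6/2, with a difference of 0.08 (SE 0.10). Psmb6 differed by -0.02 (SE 0.06) and Psmb7 by 0.02 (SE 0.08), and in all 3 the groups overlapped. Beside them, Psmb8, which takes the place of Psmb5 in the immunoproteasome, rose: it was measured at 6.55, 6.69, 6.78, 6.98 and 7.77 in WT and from 7.73 to 8.83 in R6/2, a difference of 1.24 (SE 0.25, limma adjusted p = 0.0009). WT sample 14, which had the highest Psme1, also had the highest Psmb8. Psmb9 differed by 0.64 with an adjusted p of 0.0501 and Psmb10 by -0.03.

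Markers of other cells were set beside these values. Microglia, in which Psme1 and Psmb8 are high, had marker means of 5.39 to 5.91 in WT astrocyte samples and 5.33 to 6.07 in R6/2, and 1 of 3 tested microglia markers was called, higher. Oligodendrocyte markers were lower in R6/2 astrocytes, with means of 11.93 to 12.54 against 12.48 to 12.68 and 4 of 9 called, and 3 of 10 astrocyte markers were called lower, with a median of -0.13. Of 5 young neuron markers 2 were called higher, and their mean was 7.40 to 7.94 in WT and 8.03 to 8.49 in R6/2. Endothelial and mural markers had means of 8.66 to 9.86 and 7.63 to 10.29, with 1 of 10 called lower, and 2 of 3 ependymal markers were called lower. The part of these shifts in the members' differences was not tested.

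**Figure D3:**
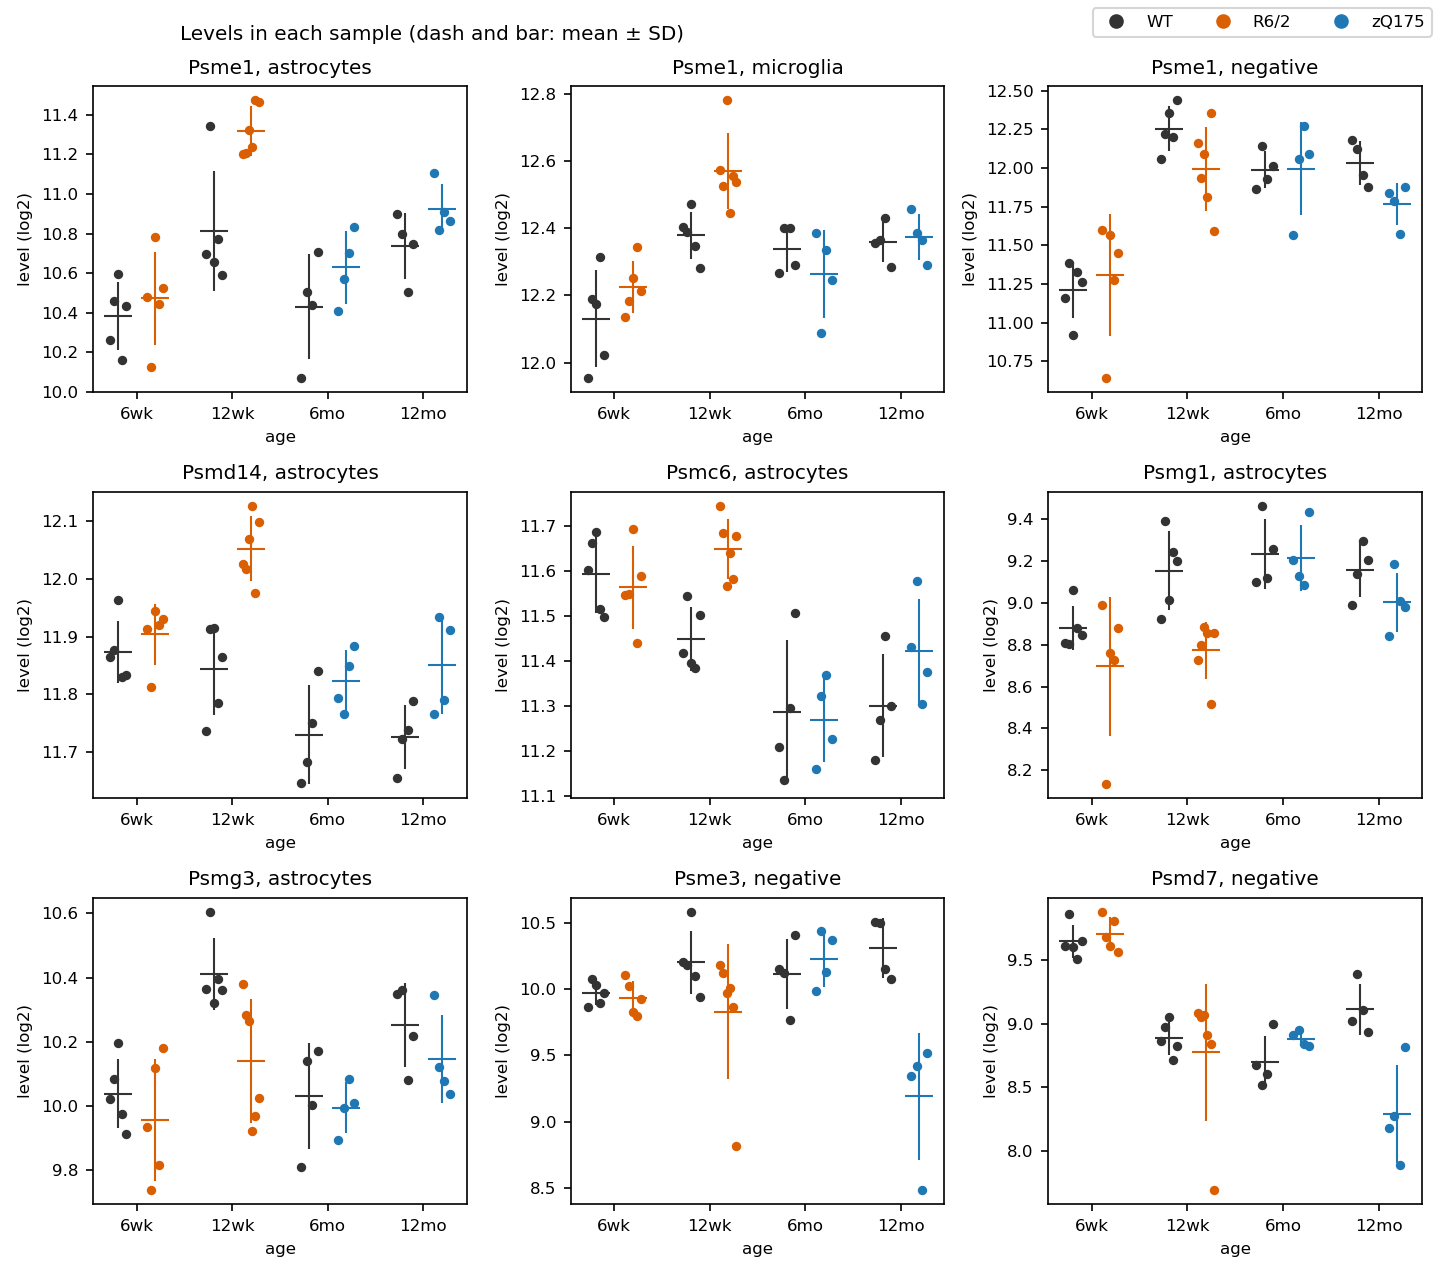
Levels (log2) in each sample of Psme1 in the 3 fractions, of Psmd14, Psmc6, Psmg1 and Psmg3 in astrocytes and of Psme3 and Psmd7 in negative cells, by age and genotype, with the mean ± SD of each group. At 12 weeks the R6/2 astrocyte samples of Psmd14 (11.98 to 12.13) lie above and those of Psmg1 (8.52 to 8.88) below all WT samples, and Psme1 overlaps through 1 WT sample at 11.34.

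At 6 weeks no member was called in any fraction of R6/2 mice: 0 of 44 in astrocytes (1.20% of all genes tested), 0 of 45 in microglia (0.410%) and 0 of 45 in negative cells (0.377%), with 0 members at an unadjusted limma p below 0.05 in each. All 44 members tested in astrocytes had a 95% interval within 1.5-fold. The median differences were -0.04, -0.06 and 0.06. A test of whether the R6/2 difference changed between 6 and 12 weeks called 0 members in astrocytes (1.15% of all genes tested), 0 in microglia (0.251%) and 0 in negative cells (4.25%), with 3, 0 and 1 members at an unadjusted p below 0.05 in limma.

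In R6/2 microglia at 12 weeks 0 of 45 members were called (6.08% of all genes tested), although 7 had an unadjusted limma p below 0.05. Psmd5, a chaperone of the base, came nearest: it was measured at 9.87, 9.96, 10.05, 10.24 and 10.48 in WT and from 9.51 to 10.06 in R6/2, a difference of -0.35 (SE 0.11, limma adjusted p = 0.0682). Psmf1 was measured at 7.50, 7.52, 7.82, 7.97 and 8.09 in WT and from 6.81 to 7.78 in R6/2, a difference of -0.53 (SE 0.20, limma adjusted p = 0.124). Psme1 differed by 0.19 (SE 0.07, limma adjusted p = 0.136), with 12.38 ± 0.07 in WT (SD, n = 5) and 12.57 ± 0.11 in R6/2 (SD, n = 6). All 8 lid subunits were below 0, from -0.21 to -0.05, and 34 of the 45 members were below 0, as were 7201 of 11958 genes tested. Subunits share arrays and are no replicates. The lid level of a sample is the mean over its subunits of log2 level minus each gene's mean over all arrays. It ran from -0.07 to 0.26 in WT and from -0.15 to 0.045 in R6/2, so the groups overlapped. The highest WT value was that of sample 16, with the next at 0.06. The 95% interval of 39 of the 45 lay within 1.5-fold.

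In R6/2 negative cells at 12 weeks 3 of 45 members were called (6.67%, against 26.2% of all genes tested, 15.5% higher and 10.7% lower), and none of the 45 had groups that did not overlap (9.45% of all genes). The inhibitor Psmf1 was measured at 7.77, 7.84, 8.13, 8.19 and 8.40 in WT and from 8.27 to 8.95 in R6/2, a difference of 0.55 (SE 0.14, limma adjusted p = 0.0077), while its other probe sets differed by -0.51, 0.33 and 0.33, and averaged over its probe sets it was not called (adjusted p = 0.415). Psmg2, the partner of Psmg1, was measured from 10.16 to 10.56 in WT and from 10.46 to 10.68 in R6/2, a difference of 0.23 (SE 0.08, limma adjusted p = 0.0329). Psmd8, a lid subunit, was measured from 11.61 to 12.02 in WT and from 11.26 to 11.78 in R6/2, a difference of -0.29 (SE 0.10, limma adjusted p = 0.0322). The calls of Psmg2 and Psmd8 were each lost in 7 of 16 alternatives. Psmb9 fell by 0.77 (SE 0.27, limma adjusted p = 0.0369), a call lost in 9 of 16.

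These counts rested on single libraries. Without WT sample 14 or without WT sample 20, 1 member was called, and without R6/2 sample 21, 6. Without R6/2 samples 11 and 21, which stood apart, 8 were called, 6 higher and 2 lower, and 2 of the 3 named above (Psmf1 and Psmg2) were among them. In that setting 3985 of all genes tested were called, against 3268 with these libraries. Astrocyte markers moved with genotype in this fraction, with means of 8.40 to 9.25 in WT and 10.11 to 11.32 in R6/2 and 9 of 10 called higher, and endothelial and mural markers the other way, with means of 11.96 to 12.30 and 11.28 to 11.98 and 3 of 11 called lower. In WT mice Psmf1 and Psmg2 were higher in astrocytes than in negative cells, by 0.65 and 0.48. The part of the cell composition in the members' differences was not tested.

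In zQ175 mice at 6 months no member was called: 0 of 44 in astrocytes (0.380% of all genes tested), 0 of 45 in microglia (0.00820%) and 0 of 45 in negative cells (0.00%), with 2, 0 and 1 at an unadjusted p below 0.05 in limma. At 12 months no member was called in astrocytes (0 of 44, against 5.90% of all genes tested, 2 at an unadjusted p below 0.05 in limma) or in microglia (0 of 45, against 3.15%, 0 at an unadjusted p below 0.05). In the astrocytes 33 of the 44 members were above 0, with a median of 0.07 against 0.02 over all genes tested, and all 9 subunits of the 19S base (0.04 to 0.18) and all 7 of the beta ring (0.00 to 0.15) were above 0. These subunits share arrays, and the levels of both subcomplexes per sample overlapped. The base ran from -0.21 to 0.07 in WT and from -0.01 to 0.08 in zQ175, with WT samples 34 (-0.21) and 35 (-0.14) lowest. The beta ring ran from -0.03 to 0.09 in WT and from -0.01 to 0.16 in zQ175. The lowest adjusted p there was that of Psmd9, a chaperone of the base (0.26, SE 0.09, limma adjusted p = 0.0963). All 44 members had a 95% interval within 1.5-fold.

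In zQ175 negative cells at 12 months 2 of 45 members were called (4.44%, against 6.93% of all genes tested, 3.85% higher and 3.08% lower), both lower. Psme3, the nuclear activator PA28-gamma, was measured at 10.08, 10.15, 10.49 and 10.51 in WT and at 8.49, 9.35, 9.42 and 9.52 in zQ175, a difference of -1.11 (SE 0.21, limma adjusted p = 0.0120). Psmd7, a lid subunit, was measured at 8.93, 9.02, 9.11 and 9.39 in WT and at 7.89, 8.18, 8.28 and 8.81 in zQ175, a difference of -0.82 (SE 0.17, limma adjusted p = 0.0194). In both genes all zQ175 samples lay below all WT samples, and sample 32 was the lowest. The other probe sets did not run alike, with -0.27 and 0.22 for Psme3 and 0.32 and 0.15 for Psmd7. Groups did not overlap for 9 of the 45 members, against 18.6% of all genes tested. By subcomplex, all zQ175 samples lay below all WT samples for the alpha ring (-0.20 to 0.02, WT 0.06 to 0.16) and the beta ring (-0.18 to 0.04, WT 0.06 to 0.10). The same held for activators and inhibitor, which include Psme3 (-0.21 to 0.05, WT 0.16 to 0.24), and for chaperones (-0.24 to -0.03, WT -0.02 to 0.07). The 19S base and lid overlapped. Subunits share arrays, and these levels were not tested.

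Neither Psme3 nor Psmd7 was called without the libraries that stood apart (WT sample 34 and zQ175 samples 31 and 32), where 0 of 45 members were called. In that setting 14 of all genes tested were called, against 875 with these libraries. Psme3 then differed by -0.81 (limma adjusted p = 0.268) and Psmd7 by -0.65 (limma adjusted p = 0.378). Without zQ175 sample 32 alone or WT sample 35 alone 1 member was called, and without zQ175 sample 33 alone 4. The lowest Psme3 (8.82) and Psmd7 (7.69) of R6/2 negative cells at 12 weeks were in sample 21, another library that stood apart. Microglia markers had means of 5.51 to 6.68 in WT and of 6.54 to 10.17 in zQ175 at 12 months, the highest in sample 31, with 1 of 8 called; their part in these differences was not tested. Psmb5, Psmb6 and Psmb7 differed by -0.32, -0.23 and -0.40 and were not called (limma adjusted p = 0.0798, 0.184 and 0.131). A test of whether the zQ175 difference changed between 6 and 12 months called 0 members in astrocytes (0.00808% of all genes tested), microglia (0.00%) and negative cells (0.0317%), with 0, 0 and 9 members at an unadjusted limma p below 0.05.

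**Figure D4:**
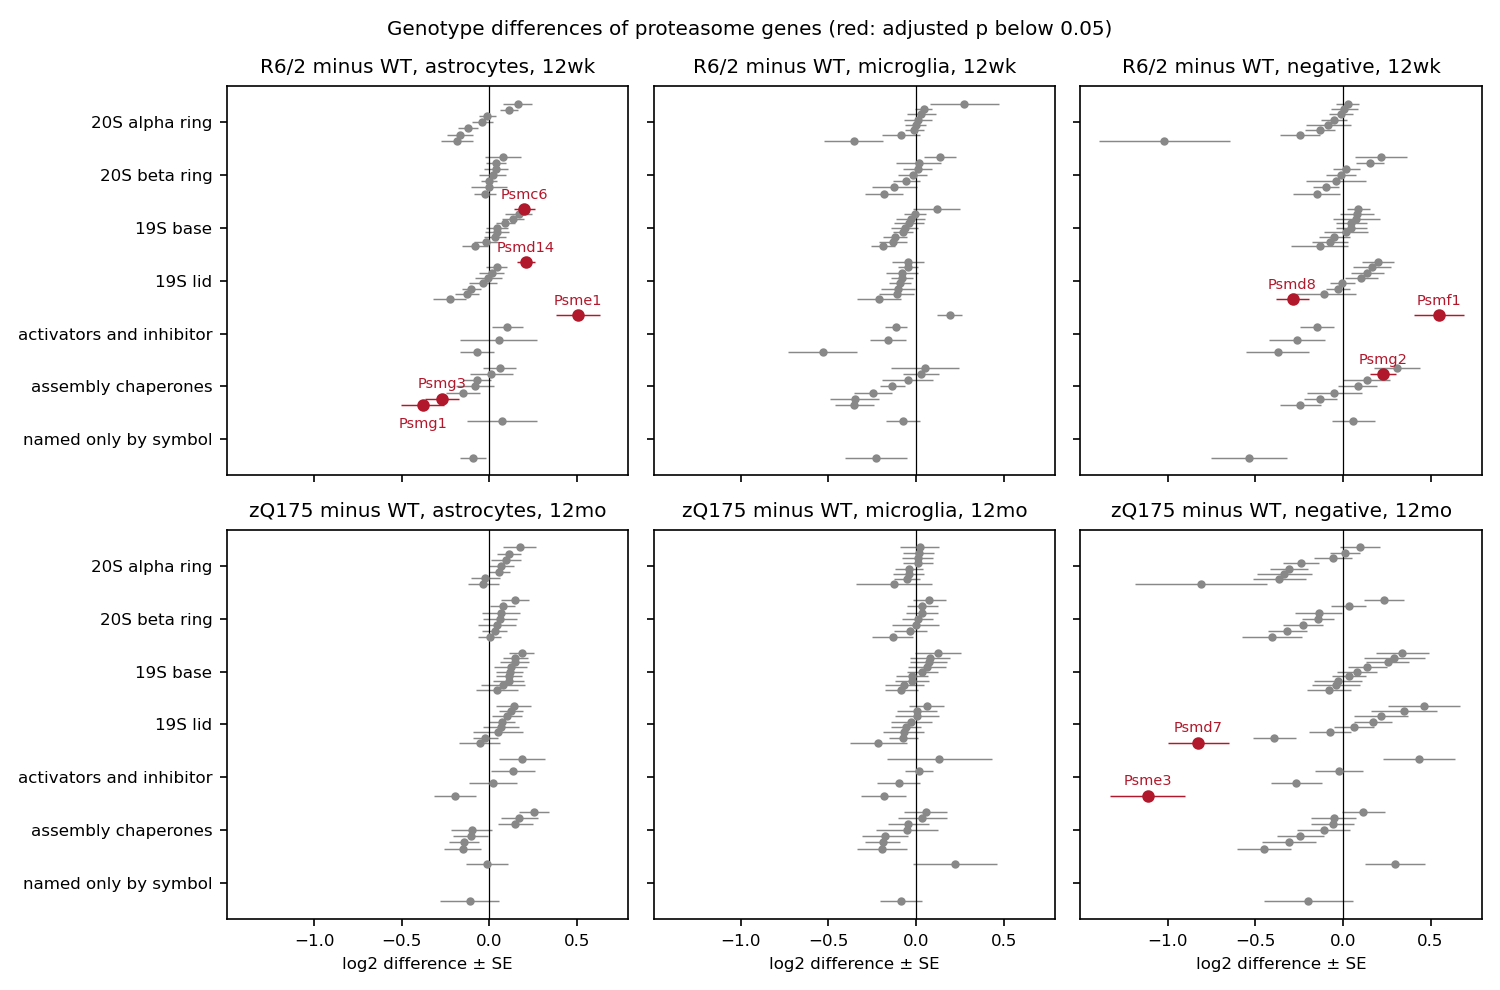
Differences between mutant and WT (log2, ± SE) of each member at the later age of each model in the 3 fractions, by subcomplex, with members at an adjusted p below 0.05 in red. Points spread most in zQ175 negative cells, and the called members are 5 in R6/2 astrocytes, 3 in R6/2 negative cells and 2 in zQ175 negative cells.

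Whether the R6/2 differences at 12 weeks differed between fractions was tested over all 24 groups; these tests use the same samples as the comparisons above. Between astrocytes and microglia 0 of 45 members were called (8.34% of all genes tested; 4 at an unadjusted limma p below 0.05). With the replicate number as a block 2 were called, both higher in astrocytes: Psmd14 by 0.26 (SE 0.08, limma adjusted p = 0.0290) and Psmd5 by 0.41 (SE 0.14, limma adjusted p = 0.0421). Psme1 differed by 0.32 (limma adjusted p = 0.253) and Psmb8 by 1.07 (SE 0.34, limma adjusted p = 0.0339), a call lost in 10 of 27 alternatives. Between astrocytes and negative cells 3 of 45 were called (6.67%, against 17.2% of all genes tested, 6.72% higher and 10.4% lower): Psme1 by 0.77 (SE 0.16, limma adjusted p = 0.00023), Psmd9 by -0.46 (adjusted p = 0.0345) and Psmg2 by -0.30 (adjusted p = 0.0433). Psmb8 differed there by 1.47 and Psmb9 by 1.42. Of these, Psme1 was called in all 28 alternatives, Psmd9 in 17 and Psmg2 in 11. Only 1 member was called without R6/2 astrocyte sample 11, 17 or 19, WT astrocyte sample 16, R6/2 negative sample 15 or WT negative sample 20, each left out alone.

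Between microglia and negative cells 5 of 45 were called (11.1%, against 21% of all genes tested, 6.90% higher and 14.1% lower): Psmf1 by -1.08 (limma adjusted p = 0.0025), Psmd5 by -0.49 (0.0283), Psmg2 by -0.36 (0.0090), Psmd14 by -0.25 (0.0424) and Psme1 by 0.45 (0.0370). The Psmf1 value is that of the brightest of its 4 probe sets. In negative cells that probe set (mean 8.34) differed by 0.55 between R6/2 and WT, and one nearly as bright (mean 8.33) by -0.51. With the replicate number as a block Psmb2 (-0.40, limma adjusted p = 0.0277) and Psmb3 (-0.21, 0.0409) were called too. Without WT microglia sample 20, 2 were called, and without WT microglia sample 16 or R6/2 negative sample 13, 3. Without R6/2 negative samples 11 and 21, 8 were called, 0 higher and 8 lower. Psme1 was not among these 8 (0.39, limma adjusted p = 0.0763). In that setting 3107 of all genes tested were called, against 2625 with both libraries. In zQ175 mice at 12 months the differences in astrocytes and microglia gave 0 called members (2.21% of all genes tested; 0 at an unadjusted limma p below 0.05).

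Other genes of protein degradation and of class I antigen processing were counted from lists. In R6/2 astrocytes at 12 weeks, where 28.7% of all genes were called (14.5% higher and 14.2% lower), 4 of 9 genes of class I antigen processing and interferon response were called, all higher: Nlrc5, the activator of class I transcription, by 2.05 (SE 0.39), the peptide transporter subunit Tap1 by 0.50 and the class I light chain B2m by 0.44 were the largest, and the list's median was 0.41 against 0.00 over all genes. Among 5 regulators of proteasome genes 1 was called: Nfe2l1, which encodes NRF1, rose by 0.53 (SE 0.10, limma adjusted p = 0.0004), without overlap between the groups. Of 7 NRF2 targets Nqo1 was called higher (0.41), of 11 genes of ubiquitin activation and shuttling Ubqln4 (0.30) and of 7 other proteasome partners the scaffold Ecpas (0.25). Of 7 stress chaperones tested, Hsph1 was called higher (0.26) and Bag3 lower (-0.39). A single called gene in lists of 5, 7 or 11, or 2 of 7, is no larger a share than that of all genes, so nothing is read from these lists.

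In R6/2 microglia at 12 weeks, where 6.08% of all genes were called, 2 of 9 class I and interferon genes were called higher (Nlrc5 by 2.00 and Irf1 by 0.57), and 5 of 8 stress chaperones were called lower, with Hspb1 (-1.35), Bag3 (-1.18) and Hspa1a (-0.98) changing most and a list median of -0.49. None of the immunoproteasome, regulator, NRF2, shuttle or partner genes was called there. In R6/2 negative cells at 12 weeks, where 26.2% of all genes were called, 3 of 7 NRF2 targets were called: Nqo1 (1.48) and Gclm (0.76) higher and Slc7a11 (-0.96) lower. At 6 weeks, where 1.20% and 0.410% of all genes were called, Nlrc5 was called in R6/2 astrocytes (1.87) and microglia (1.48). In zQ175 mice at 12 months the stress chaperones Hspa1b (-0.81) and Dnajb1 (-0.52) and the NRF2 target Slc7a11 (-0.72) were called lower in astrocytes (5.90% of all genes called), 0 list genes were called in microglia (3.15%), and Slc7a11 (-1.29), Ubqln4 (-0.57) and the deubiquitinase Uchl5 (-0.49) were called lower in negative cells (6.93%).

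Between the WT fractions, where 85.6% (astrocytes minus microglia) and 75.9% (astrocytes minus negative cells) of all genes were called, the lists ran as follows. All 9 class I and interferon genes, all 7 other proteasome partners and 7 of 8 stress chaperones were lower in astrocytes than in microglia, with medians of -1.95, -0.49 and -1.28. Of 7 NRF2 targets, astrocytes had 4 at higher and 3 at lower levels than microglia, and 6 at higher and 1 at lower levels than negative cells.

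Sample to sample, with group means removed, the subunits moved together only in part. Over the 37 samples of a fraction, the correlation of a constitutive subunit with the mean of the others had a median of 0.44 in astrocytes, 0.48 in microglia and 0.40 in negative cells; all genes above the dim level had medians of 0.12, 0.14 and 0.12 with the same mean. These are descriptions over samples that share arrays and array-wide scale, and genes of like brightness were not set beside the subunits. In astrocytes Psmd12 (0.75), Psmc1 (0.72) and the chaperone Psmg1 (0.66) followed the mean most, and Psmb7 (-0.33), Psma5 (-0.32) and Psmd11 (-0.09) least. In microglia Psmc1 (0.75), Psmc3 (0.70) and Psmg4 (0.70) followed it most, and Psma5 (-0.28), Psmb11 (-0.06) and Psma3 (0.00) least. In negative cells Psmb1 (0.76), Psmg1 (0.76) and Psmc5 (0.69) followed it most, and Psmf1 (-0.15), Psma8 (-0.14) and Psmb11 (-0.05) least. As Psmb11 lay below the dim level (mean 3.44), nothing is read from its correlations. Pairs within the 19S base had median correlations of 0.38, 0.38 and 0.29 in the 3 fractions and pairs of assembly chaperones of 0.38, 0.39 and 0.26, while pairs of alpha subunits had 0.19, 0.21 and 0.18.

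**Figure D5:**
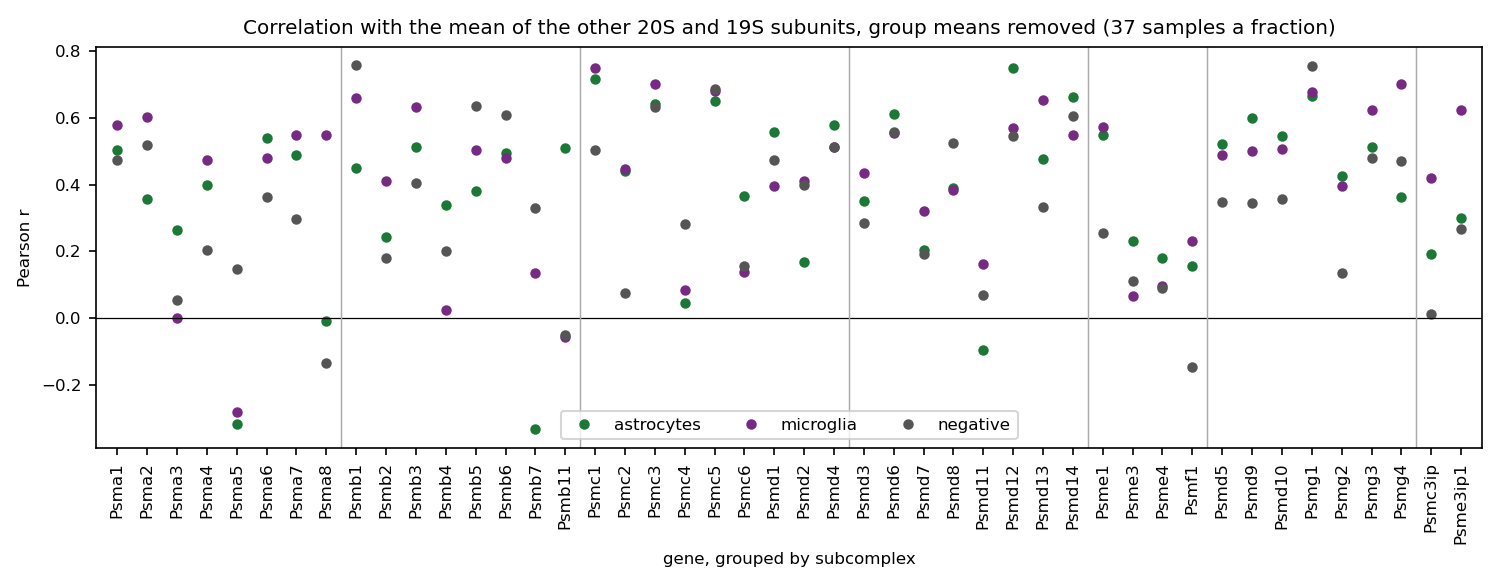
Pearson correlation of each member with the mean of the other 20S and 19S subunits over the 37 samples of a fraction, after group means were removed, by subcomplex. Most members lie above 0, while Psma5 and Psmb7 (-0.32 and -0.33 in astrocytes) lie below it.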

How the data were processed

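The authors deposited log2 expression values of 45101 probe sets; affy, RMA and limma are named, without versions, per the submitters' processing notes, and a genome build is not given in the sources used here. RMA corrects background, sets the probe values of all arrays to one distribution and then summarises probes. A shift shared by all genes would thus be removed at least in part. The medians of the deposited arrays still ran from 6.26 to 6.65. The deposited values ran from 1.50 to 14.26 and were used unchanged.

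Genes were named from the platform annotation. Group means were fitted by lmFit and eBayes (limma 3.58.1, R 4.3.3, two-sided tests), with 4 groups per fraction and model, all WT samples with age as covariate for the fractions, and all 24 groups for differences between effects. A gene was tested when its mean reached the 40th percentile of probe set means, and the Benjamini-Hochberg adjustment took in every gene tested. The tests were checked on data simulated for R6/2 minus WT astrocytes at 12 weeks. Of 50 changes of each size, 15 of 0.25, 26 of 0.5, 46 of 1 and 49 of 2 (log2) were called in the right direction. Of 143 calls 7 were false. A member that was not called may thus still have changed by a small amount. Called members of genotype comparisons were all named. Of other comparisons the 4 largest in each direction were named, of each list up to 3 called genes, and of the correlations the 3 highest and 3 lowest per fraction. Psmd7 and Psme1 by age were named after their values were seen. Members and lists were chosen with earlier results of these data known. The alternatives were the mean of the probe sets, no dim filter, centred arrays, leaving out each replicate, leaving out WT samples 12 and 20, the replicate number as a block and, added after seeing the data, leaving out the libraries that stand apart. Replicate numbers recur once in each fraction, and the labels do not say that a number marks one pool. Levels of Y-linked genes followed the number: WT samples 12 and 20 were low in all 3 fractions, and at 6 weeks WT sample 2 (7.36 to 7.52, the others 7.96 to 9.14) and R6/2 sample 8 were the lowest of their group in all 3. The numbers were therefore taken to pair the fractions, although deviations of all genes from the group means correlated above 0.1 in only 24, 27 and 19 of 37 pairs. As samples are litter pools, a p-value reflects only how such pools vary.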

Additional observations from a re-analysis of the deposited data

Results flagged for a closer look

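A sample stood apart from the others of its group in 16 of 192 groups of values tested (Dixon's test at 95%), and chance alone marks about 1 in 20. Among single members, the activator subunit Psme3 was at 8.49 in zQ175 negative sample 32 at 12 months, below the next at 9.35. In WT astrocyte sample 14 at 12 weeks, Psme1 (11.34) and the chaperone Psmg3 (10.60) both lay above the other WT samples.

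The level of a subcomplex is the mean over its subunits of the log2 level minus each gene's mean over all arrays. R6/2 astrocyte sample 7 at 6 weeks stood apart for the 20S alpha ring (-0.12), the 19S lid (0.02) and all constitutive subunits (-0.07). The alpha ring stood apart in zQ175 microglia sample 28 at 6 months (0.13), the beta ring in WT negative sample 25 at 6 months (0.30), the 19S base in zQ175 negative sample 32 at 12 months (0.22) and the constitutive subunits in WT negative sample 12 at 12 weeks (-0.06). Activators and inhibitor stood apart in 6 groups: zQ175 astrocyte sample 26 at 6 months (-0.36), R6/2 astrocyte sample 17 (-0.42), R6/2 microglia sample 13 (-0.08) and R6/2 negative sample 21 (-0.08) at 12 weeks, WT astrocyte sample 3 at 6 weeks (0.02) and WT microglia sample 35 at 12 months (-0.22).

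The R6/2 difference at 12 weeks differed between fractions, by the test of the difference itself in limma, for the members and immunoproteasome genes that follow. In astrocytes minus negative cells these were Psme1 (0.77), Psmd9 (-0.46), Psmg2 (-0.30), Psmb8 (1.47) and Psmb9 (1.42), and in astrocytes minus microglia Psmb8 (1.07). In microglia minus negative cells they were Psmf1 (-1.08), Psmd5 (-0.49), Psmg2 (-0.36), Psmd14 (-0.25) and Psme1 (0.45). Without the libraries that stand apart Psme1 was not called there (limma adjusted p = 0.0763). The probe sets of Psmf1 did not run alike in negative cells, as given above.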

How the results depend on the processing

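Counts of called members in R6/2 mice at 12 weeks, leaving out 1 library at a time, ran from 3 to 5 in astrocytes, 0 to 1 in microglia and 1 to 6 in negative cells. In zQ175 negative cells at 12 months they ran from 1 to 4, and for the change of that difference from 6 to 12 months from 0 to 1. Between WT fractions they ran from 29 to 33 (astrocytes minus microglia), 19 to 23 (astrocytes minus negative cells) and 30 to 34 (microglia minus negative cells), and for the R6/2 differences between the same fractions from 0 to 1, 1 to 3 and 2 to 7. All other counts were 0 under each of these settings. With the mean of the probe sets, 1 member was called in R6/2 microglia at 12 weeks, 1 in zQ175 negative cells at 12 months and 1 for the R6/2 difference of astrocytes minus negative cells. Without WT samples 12 and 20 the R6/2 differences between fractions gave 1 (astrocytes minus negative cells) and 3 (microglia minus negative cells). Without the libraries that stand apart, a setting chosen after seeing the data, 8 were called in R6/2 negative cells at 12 weeks, 0 in zQ175 negative cells at 12 months and 8 for microglia minus negative cells. Of all genes tested, 3985, 14 and 3107 were then called. In WT astrocytes minus negative cells, averaging the probe sets turned Psmd9 to -0.0057 and Psmc6 to 0.0084. Differences of mutant minus WT in subcomplex level moved by more than the spread between replicates as follows. With the mean of the probe sets, the R6/2 minus WT difference of the 20S alpha ring at 12 weeks went to 0.062 (astrocytes), 0.13 (microglia) and 0.018 (negative cells). At the same age that of the assembly chaperones went to -0.032 in R6/2 astrocytes and that of the activators to -0.025 in R6/2 microglia. The activator difference also went to 0.0053 in zQ175 negative cells at 6 months. With centred arrays the difference of the alpha ring went to -0.089 in R6/2 astrocytes at 12 weeks and to -0.069 in zQ175 microglia at 12 months. The causes were not tested.

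With the replicate block, the WT fractions gave 32, 23 and 32 called members, and the R6/2 differences between fractions 2 (astrocytes minus microglia), 3 and 7. The block added Psmd3 and Psmd13 to WT astrocytes minus negative cells and Psme4 and Psmg1 to WT microglia minus negative cells, and apart from these and the 4 calls of R6/2 differences given above it changed no call of a member. No paired analysis was possible for mutant against WT within a fraction because the groups share no replicate number. The number of arrays, 4 to 6 a group, limits the precision.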

Other observations

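The probe set shared by Psme2 and Psme2b, which belongs to no single gene, was measured at 11.72 ± 0.06 (SD, n = 5) in WT and 11.95 ± 0.11 (SD, n = 6) in R6/2 microglia at 12 weeks. In astrocytes of that age it was at 10.84 ± 0.11 (SD, n = 5) in WT and 10.73 ± 0.14 (SD, n = 6) in R6/2, and in negative cells at 11.50 ± 0.12 (SD, n = 5) and 11.31 ± 0.14 (SD, n = 6). In astrocytes at 12 months it was at 10.49 ± 0.15 in WT and 10.64 ± 0.16 in zQ175 (SD, n = 4 each). No test was made on it.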
